A study of Mus musculus with 10 samples.

Results

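The kinesin motor family was examined in RNA of NFAT5 KO and WT CD8 T cells taken from tumours, with its mitotic members set against its transport members. Members were the protein-coding genes whose symbol is Kif followed by a digit, a rule on names that uses no measured value, although the family itself was picked with earlier results of these data known. There were 39 members among 54408 annotated genes. Of these, 11 were counted as mitotic, 13 as transport and 15 as other kinesin genes, and 1 of the last, Kif1bp, encodes a binding protein of KIF1 motors and no motor. The classes were also set with earlier results known, and another membership is given in the closing section.

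Kinesins are motor proteins that use ATP to move along microtubules or to take microtubule ends apart. Mitotic kinesins build the spindle, align chromosomes and help to cut the daughter cells apart, and cycling cells make them mostly late in the cell cycle. Transport kinesins carry vesicles, mitochondria, endosomes and lytic granules along microtubules in dividing and resting cells alike.

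The 2 groups were 5 NFAT5 KO libraries and 5 WT libraries. P14 CD8 T cells, which carry a T cell receptor for the gp33 peptide, came from C57BL/6 mice with floxed Nfat5 alleles, with CD4-Cre in the NFAT5 KO group and with no Cre in the WT group. CD4-Cre is active from T cell development in the thymus onward and in all T cells that pass through a CD4 stage, so it marks no single T cell state. Both groups spent 48 h in activating culture before transfer into hosts that carried B16-gp33, a melanoma line that expresses the peptide, under the skin. The number of cells transferred was the same for every library of both groups. The tumours were taken 7 days after transfer and their CD8 T cells sorted. Whether every library is a mouse of its own is not stated, and p-values therefore describe the spread among these libraries, which may be technical. In bulk RNA, fewer cells of a type and less RNA per cell cannot be told apart.

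The libraries held 22444310 to 32001285 estimated counts. CD8 T cell markers were abundant, and their 6 genes summed to 5921.89 to 6233.80 CPM (each count relative to the TMM-scaled total of its library) in NFAT5 KO and 5811.78 to 6669.76 CPM in WT libraries. Nfat5 was counted at 11.6 to 26.8 CPM in NFAT5 KO and 9.20 to 18.3 CPM in WT libraries, and counts per gene do not separate the floxed exons, so this does not check the labels. WT library 679_4 stood apart from the rest. Its genes of at least 5000 bases were lower than its genes of at most 2000 bases by a median of 0.944 on the log2 scale, whereas this difference was between -0.0107 and 0.312 in the other libraries. Without it, 9 mitotic members were called lower, as with it, and 0 transport members were called (edgeR). Library titles start with 678 or 679, a prefix whose meaning the labels do not give.

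Most mitotic kinesin genes fell in NFAT5 KO cells. No transport kinesin gene passed the test, which for so few members is near the share called over all genes. Of the 11 mitotic members, 9 passed the test and all 9 were lower, with a median log2 fold change over the 11 of -2.53 (edgeR quasi-likelihood test, adjusted p below 0.05 over 13081 genes). Over all genes tested, 5.63% were called lower and 3.38% higher, and the median was 0.02. Of the 13 transport members 11 were tested, and 0 were called by edgeR, by DESeq2 or by limma-voom, against 9.01% of all genes called in either direction by edgeR, with 2 at an unadjusted p below 0.05 and a median of 0.15. All 11 mitotic members also passed a filter blind to genotype, a mean of at least 1 CPM over all libraries.

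**Figure D1:**
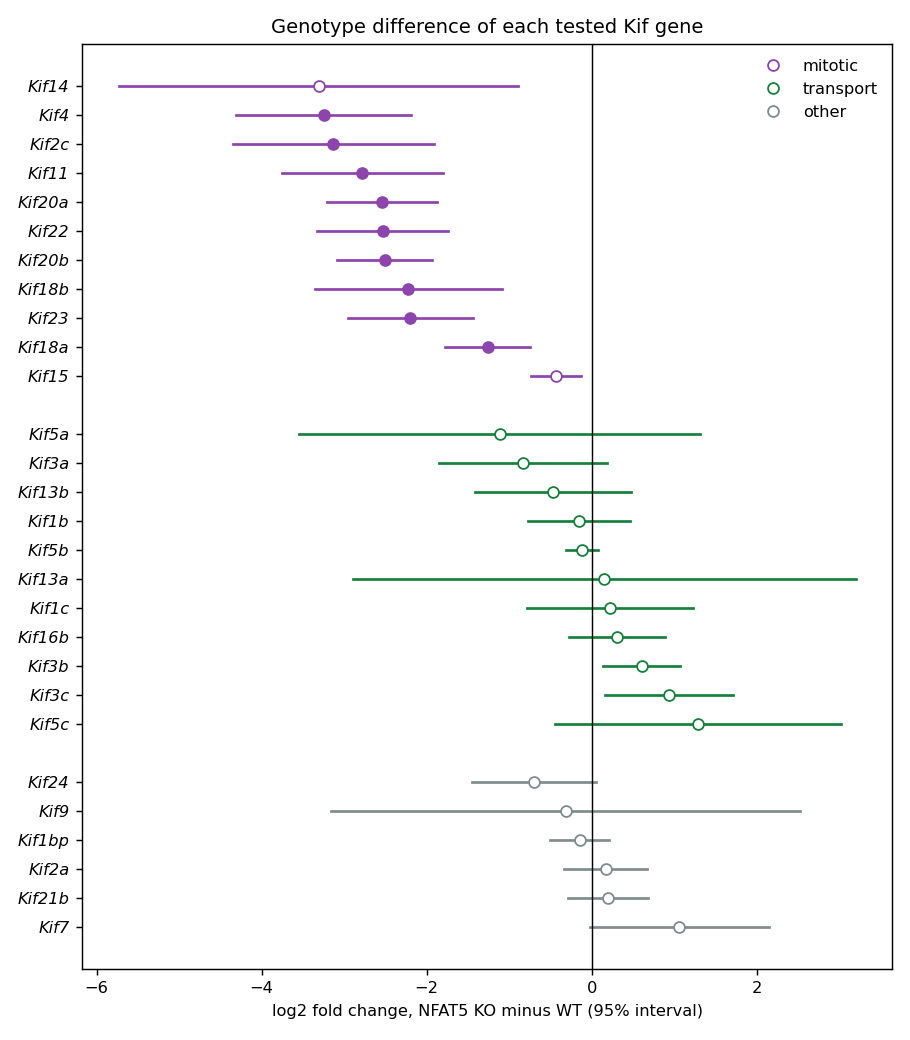
Log2 fold change of NFAT5 KO minus WT for the 28 tested kinesin genes, with 95% intervals, ordered within the mitotic, transport and other classes. Filled points passed the adjusted p threshold, and all 9 of them are mitotic genes below 0.

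Values per library below are CPM in the order NFAT5 KO 678_3, 678_5, 678_6, 679_2 and 679_6, then WT 678_2, 678_4, 679_3, 679_4 and 679_5. Kif11 encodes the motor that slides antiparallel spindle microtubules apart and keeps the spindle bipolar. Kif11 had 29.5, 11.7, 10.1, 3.05 and 15.0 CPM in NFAT5 KO libraries, against 143, 79.0, 93.5, 98.7 and 59.9 CPM in WT libraries. Every NFAT5 KO library lay below every WT library, and the log2 fold change was -2.78 (SE 0.45, edgeR adjusted p = 0.00239). Kif15 encodes a motor that can keep the spindle bipolar when KIF11 is weak. Kif15 had 89.1, 54.7, 91.1, 71.4 and 73.1 CPM in NFAT5 KO libraries, against 109, 94.5, 102, 86.7 and 120.5 CPM in WT libraries. The groups overlapped, and the log2 fold change was -0.43 (SE 0.14, edgeR adjusted p = 0.0779), which did not pass. Mean levels of these bipolarity motors were 13.8 ± 9.75 CPM (Kif11) and 75.9 ± 14.9 CPM (Kif15) in NFAT5 KO cells, against 94.8 ± 30.9 CPM (Kif11) and 102.5 ± 13.0 CPM (Kif15) in WT cells (SD, n = 5 each).

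Among genes for chromosome movement, Kif4 encodes a chromosome-bound motor that acts in condensation and in the central spindle. Kif4 had 13.2, 2.97, 2.69, 1.54 and 5.18 CPM in NFAT5 KO libraries, against 69.5, 47.6, 50.6, 36.9 and 38.0 CPM in WT libraries. The groups did not overlap, and the log2 fold change was -3.25 (SE 0.49, edgeR adjusted p = 0.00164). Its span overlaps that of the opposite-strand gene Pdzd11 (27.6 CPM), and whether the pair shares exons was not checked. The strand setting of the counting is not given, so reads from any shared exon may be misassigned. Kif22 encodes a chromosome-arm motor that pushes chromosomes outward. Kif22 had 21.6, 4.43, 9.68, 7.43 and 10.7 CPM in NFAT5 KO libraries, against 86.1, 46.1, 45.5, 81.5 and 52.6 CPM in WT libraries. No NFAT5 KO library reached the lowest WT library, and the log2 fold change was -2.53 (SE 0.37, edgeR adjusted p = 0.00128). Kif2c encodes a motor that takes microtubule ends apart at kinetochores. Kif2c had 12.2, 2.49, 1.30, 1.23 and 3.43 CPM in NFAT5 KO libraries, against 46.7, 40.5, 23.6, 38.2 and 31.3 CPM in WT libraries. NFAT5 KO 678_3 was the highest of its group and still below all WT libraries, and the log2 fold change was -3.13 (SE 0.56, edgeR adjusted p = 0.00417).

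Kif18a encodes a motor that damps the swings of aligned chromosomes. Kif18a had 4.60, 3.08, 5.87, 4.42 and 5.47 CPM in NFAT5 KO libraries, against 14.7, 8.41, 10.9, 11.3 and 10.8 CPM in WT libraries. The levels were low but did not overlap, and the log2 fold change was -1.26 (SE 0.24, edgeR adjusted p = 0.00556), the smallest change among the mitotic members called. The span of Kif18a overlaps that of the opposite-strand gene Mettl15 (8.41 CPM), a level like its own. Whether they share exons was not checked, and reads from any shared exon may be misassigned. Kif18b encodes a motor that shortens astral microtubules. Kif18b had 21.2, 7.14, 1.25, 4.18 and 9.61 CPM in NFAT5 KO libraries, against 58.8, 39.6, 34.8, 36.3 and 33.3 CPM in WT libraries. NFAT5 KO libraries were spread widely and stayed below WT, and the log2 fold change was -2.22 (SE 0.52, edgeR adjusted p = 0.0195). Without WT 678_2 this call was lost (adjusted p = 0.0563), the only mitotic call that any single left-out library removed.

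Cytokinesis motors formed the third set. Kif23 encodes the motor of centralspindlin, which bundles the midzone. Kif23 had 18.3, 7.18, 13.0, 4.83 and 10.9 CPM in NFAT5 KO libraries, against 65.3, 27.9, 49.4, 67.8 and 38.0 CPM in WT libraries. The groups did not overlap, and the log2 fold change was -2.20 (SE 0.35, edgeR adjusted p = 0.00209). Kif20a encodes a motor that brings the chromosomal passenger complex to the midzone. Kif20a had 15.9, 21.0, 12.6, 7.60 and 9.26 CPM in NFAT5 KO libraries, against 108, 54.5, 66.1, 106 and 50.9 CPM in WT libraries. All 5 NFAT5 KO libraries were lower, and the log2 fold change was -2.54 (SE 0.31, edgeR adjusted p = 0.000484). The span of Kif20a overlaps that of the opposite-strand gene Cdc23 (58.8 CPM). Whether they share exons was not checked, and reads from any shared exon may be misassigned.

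Kif20b encodes another cytokinesis motor. Kif20b had 4.36, 2.97, 2.82, 6.20 and 5.24 CPM in NFAT5 KO libraries, against 25.3, 19.9, 22.8, 35.6 and 19.8 CPM in WT libraries. Groups were separate, and the log2 fold change was -2.51 (SE 0.27, edgeR adjusted p = 0.000258). Kif14 encodes a motor that works with citron kinase at the midbody. Kif14 had 0.937, 0, 1.39, 0 and 0 CPM in NFAT5 KO libraries, against 3.80, 2.59, 4.08, 7.72 and 4.47 CPM in WT libraries. It was at 0 in 3 NFAT5 KO libraries, and the log2 fold change was -3.31 (SE 1.12, edgeR adjusted p = 0.0876), which did not pass although the groups did not overlap. Among the mitotic members, 10 of 11 had every NFAT5 KO library below every WT library, as did 6.41% of all genes tested.

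**Figure D2:**
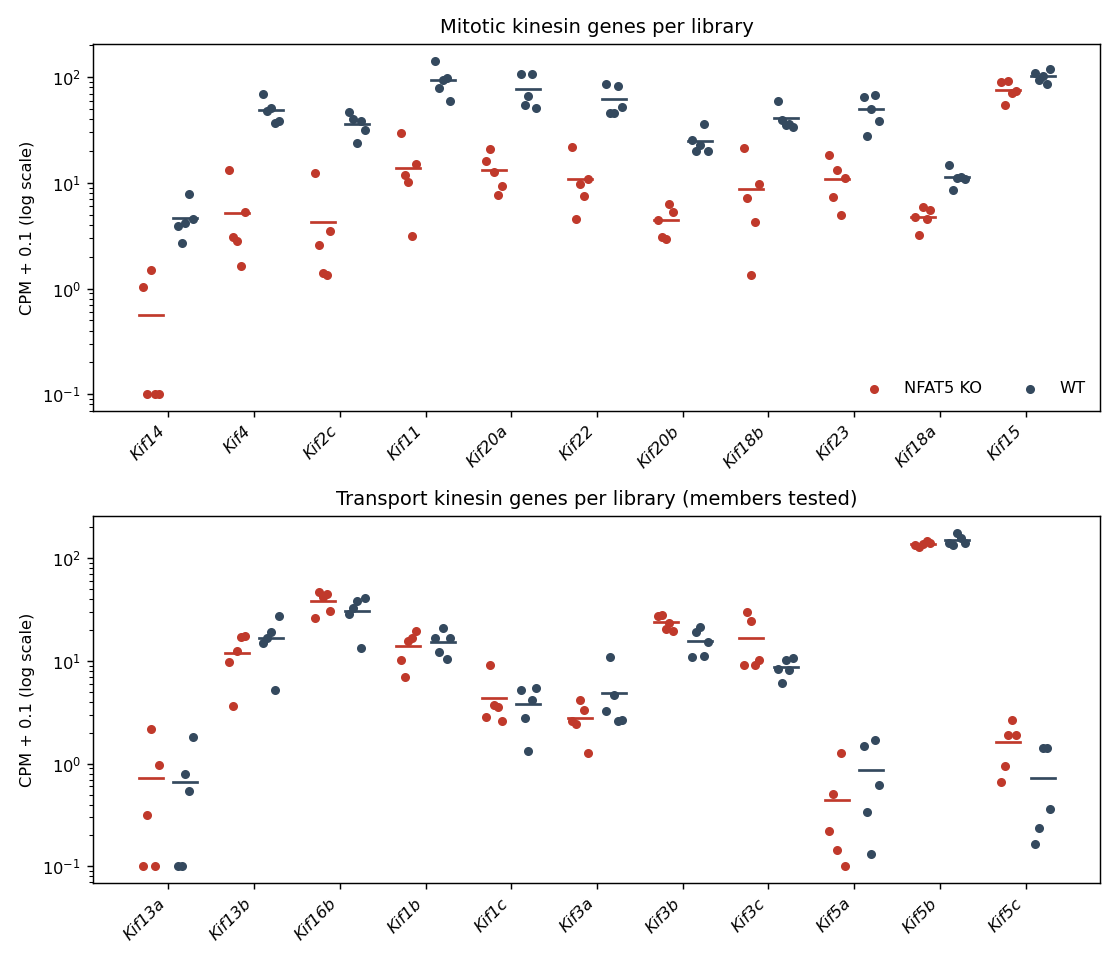
CPM of each mitotic (top) and tested transport kinesin gene (bottom) in every library, with NFAT5 KO in red left of WT in dark blue; bars are means, and 0.1 is added for the log axis. Mitotic genes other than Kif15 separate by genotype and transport genes do not.

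Library 678_3 was the highest NFAT5 KO library in 6 of 11 mitotic members and 679_2 the lowest in 6, whereas 678_2 was the highest WT library in 7. For Kif14, 679_2 shared the lowest value, 0, with 678_5 and 679_6. The proliferation marker Mki67 also had no overlap, with 4.28 to 16.8 CPM in NFAT5 KO and 51.6 to 123.5 CPM in WT libraries (log2 fold change -3.18, SE 0.34, edgeR adjusted p = 0.000258). Summed over all 11 mitotic members, TPM (a level per length) was 60.0 to 108.3 in NFAT5 KO and 173.7 to 272.9 in WT libraries, with means of 76.1 ± 20.3 TPM in NFAT5 KO and 221.0 ± 38.9 TPM in WT (SD, n = 5 each). Without Kif15, the abundant member that did not pass the edgeR test, the sum was 18.1 to 62.3 TPM in NFAT5 KO and 136.8 to 230.8 TPM in WT libraries. Transport members summed to 74.4 to 88.8 TPM in NFAT5 KO and 69.5 to 101.4 TPM in WT libraries, and these ranges overlapped. Levels per length showed the same lower values. Kif23, Kif22, Kif20a and Kif11 averaged 9.58 ± 6.57, 5.90 ± 3.24, 4.46 ± 2.001 and 2.95 ± 2.14 TPM in NFAT5 KO cells, against 37.4 ± 14.4, 35.3 ± 9.69, 27.3 ± 9.25 and 19.8 ± 5.94 TPM in WT cells (SD, n = 5 each). Kif15 stood at 43.0 ± 6.64 TPM in NFAT5 KO and 42.3 ± 12.5 TPM in WT cells, above the means of the other mitotic members, although in WT cells it differed from Kif23 by less than their spread. Mitotic members made up 33.8% to 51.9% of the family's TPM in NFAT5 KO and 61.1% to 73.0% in WT libraries.

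**Figure D3:**
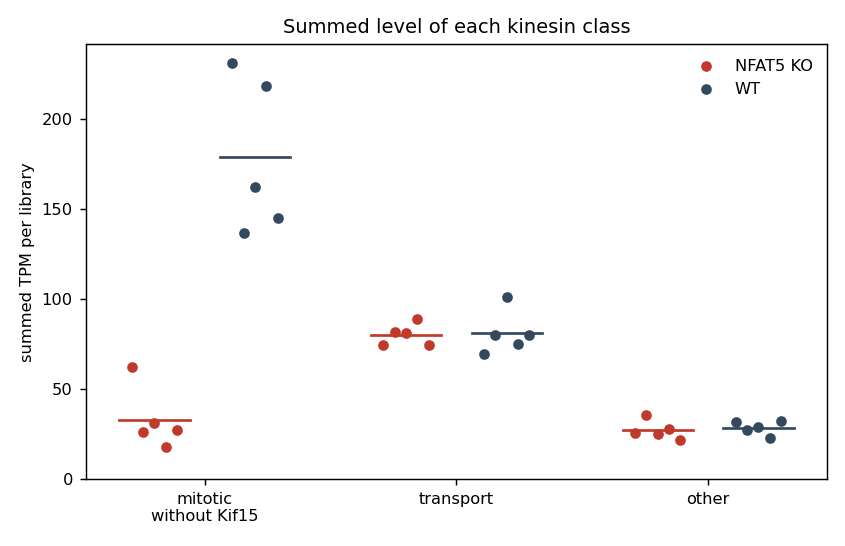
Summed TPM per library of the mitotic members without Kif15, the transport members and the other members, with NFAT5 KO in red left of WT in dark blue and bars at the means. The mitotic sums plotted are 18.1 to 62.3 in NFAT5 KO and 136.8 to 230.8 in WT libraries, and with Kif15 they are 60.0 to 108.3 in NFAT5 KO and 173.7 to 272.9 in WT libraries; the other classes overlap.

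Macrophage markers were mostly lower in NFAT5 KO libraries, although their sums overlapped between the groups. The 8 genes summed to 20.1 to 64.4 CPM in NFAT5 KO and 53.4 to 126.3 CPM in WT libraries. All 7 tested had a negative log2 fold change, with a median of -1.88. Of these 1, Adgre1, was called lower by edgeR, against 5.63% of all genes tested, and it was at 0 in 3 NFAT5 KO libraries. With the mean of the macrophage markers as a covariate, 2 of the 11 mitotic members, Kif20a and Kif20b, were still called. All 11 log2 fold changes stayed negative (-2.82 to -0.22). Over all genes, this covariate took the edgeR calls from 737 to 45 lower and from 442 to 1 higher. Melanoma markers summed to 0.92 to 3.79 CPM in NFAT5 KO and 1.19 to 4.27 CPM in WT libraries, with Sox10 at 0 in all of them, and B cell markers summed to at most 1.36 CPM. Their part in the kinesin difference was not tested beyond these fits. In the libraries of prefix 678 alone (3 NFAT5 KO, 2 WT) no gene of any kind passed the edgeR test, with 1449 genes and 9 of the 11 mitotic members at an unadjusted p below 0.05, and the mitotic median was -2.32. With prefix 679 alone (2 NFAT5 KO, 3 WT) it was -2.73 and 8 members were called. No gene passed an interaction of genotype with prefix (edgeR). An unadjusted p below 0.05 was seen for 377 of 13081 genes and for 4 of 28 tested members (Kif14, Kif7, Kif13a and Kif3c). Kif14 and Kif13a were at 0 in some libraries.

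Promoters of the mitotic members are shown because most carry the CHR element (cell cycle genes homology region), which is known in promoters of genes expressed late in the cell cycle. RefSeq promoters on GRCm38.p6 (250 bases before to 50 after the start) were given for 10 of 11 mitotic, 10 of 13 transport and 11 of 15 other members. The letters TTTGAA or TTCGAA were searched on both strands, together with CCAAT, and capitals below mark either motif. Windows run from 60 bases before the start to 29 after it. They lie at chr19:37376322-37376411 (Kif11, plus strand), chr9:122951021-122951110 (Kif15, plus strand), chr7:127042391-127042480 (Kif22, minus strand), chr11:102925095-102925184 (Kif18b, minus strand), chr19:34922298-34922387 (Kif20b, plus strand), chr9:61946770-61946859 (Kif23, minus strand), chrX:100626005-100626094 (Kif4, plus strand), chr2:109280678-109280767 (Kif18a, plus strand) and chr2:153291356-153291445 (Kif3b, plus strand). The first set holds members with a match near the start, and Kif18a and Kif3b, a mitotic and a transport member, are shown as windows with none.
Kif11: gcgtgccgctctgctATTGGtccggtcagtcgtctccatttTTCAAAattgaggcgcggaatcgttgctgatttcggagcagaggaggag
Kif15: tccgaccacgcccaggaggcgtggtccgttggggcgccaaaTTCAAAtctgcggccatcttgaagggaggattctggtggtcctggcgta
Kif22: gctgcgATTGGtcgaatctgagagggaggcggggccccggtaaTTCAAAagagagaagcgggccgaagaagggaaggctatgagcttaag
Kif18b: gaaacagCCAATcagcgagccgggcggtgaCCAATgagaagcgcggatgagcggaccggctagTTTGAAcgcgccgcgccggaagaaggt
Kif20b: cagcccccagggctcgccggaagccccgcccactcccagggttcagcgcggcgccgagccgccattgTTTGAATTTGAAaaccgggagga
Kif23: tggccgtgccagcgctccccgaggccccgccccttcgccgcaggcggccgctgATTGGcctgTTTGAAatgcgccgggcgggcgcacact
Kif4: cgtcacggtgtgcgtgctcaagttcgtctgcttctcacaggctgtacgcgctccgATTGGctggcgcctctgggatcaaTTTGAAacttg
Kif18a: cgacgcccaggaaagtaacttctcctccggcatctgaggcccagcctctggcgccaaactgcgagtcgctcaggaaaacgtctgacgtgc
Kif3b: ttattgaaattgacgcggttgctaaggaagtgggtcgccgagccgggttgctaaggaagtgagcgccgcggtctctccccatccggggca

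A CHR match lay in 9 of 10 mitotic, 1 of 10 transport and 3 of 11 other members, against 19.2% of 32851 promoters in the table. Within 30 bases of the start, a distance chosen after the positions were seen, it lay in 7 of 10 mitotic, 0 of 10 transport and 2 of 11 other members, against 3.45%. CCAAT lay in 6, 3 and 5 of these, against 37.4%, and each of the 6 mitotic members with CCAAT also had CHR. Kif15, whose gene count did not pass the edgeR test, had a CHR match at -19, as Kif11 did, while Kif18a, which fell, had none. The RefSeq and annotated starts differ by more than the length of the promoter in Kif4 (328 bases), Kif14 (1505), Kif2c (3867), Kif27 (4175) and Kif17 (11816), so these windows, that of Kif4 printed here among them, may not be those in use. No match says only that these letters are not in the window.

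**Figure D4:**
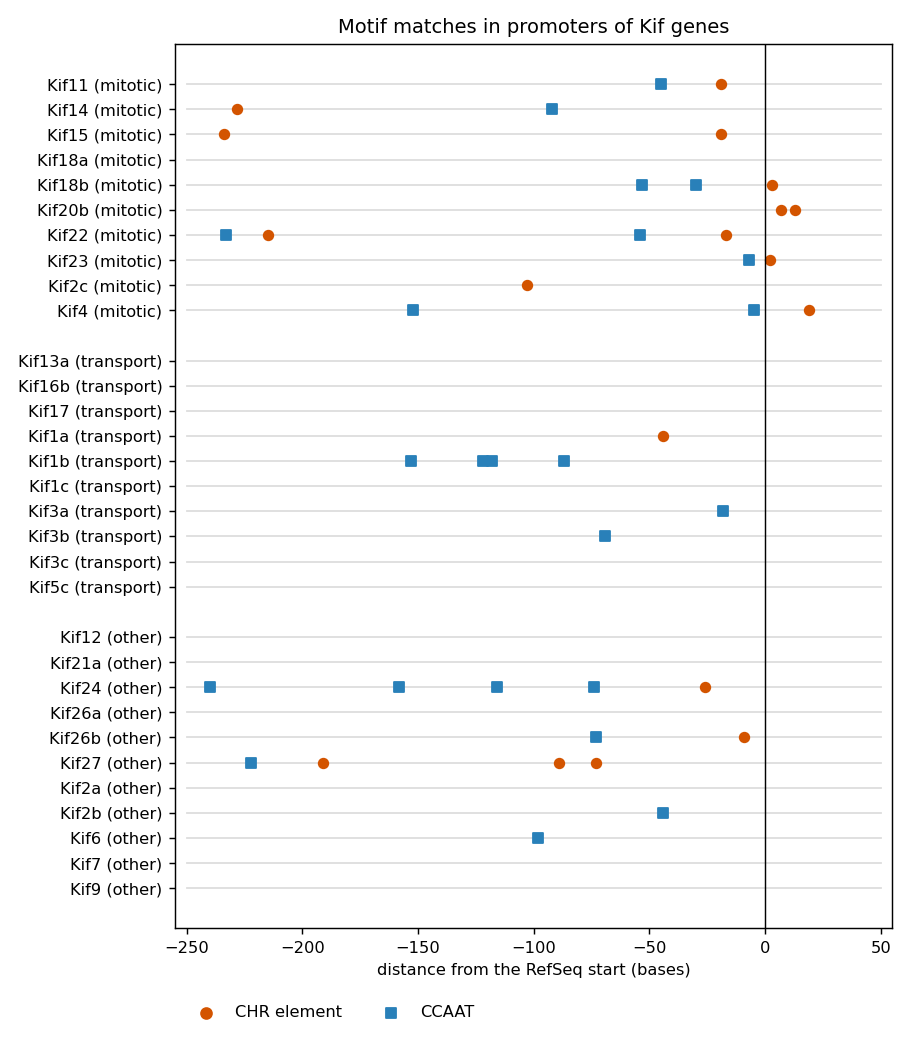
Distance from the RefSeq start of each CHR match (orange) and CCAAT match (blue) in the promoters of mitotic, transport and other kinesin genes. At any distance, CHR matches are found in 9 of 10 mitotic, 1 of 10 transport and 3 of 11 other members, and CCAAT matches in 6, 3 and 5. Within 30 bases of the start, a distance chosen after the positions were seen, CHR matches are found in 7, 0 and 2.

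Kif15 was followed by transcript because its gene count did not pass the edgeR test and its length-corrected value turned sign (0.01 with a length offset). The gene count was called lower by the Wald test of DESeq2 (adjusted p = 0.032) and by limma-voom (adjusted p = 0.0337). Of its tested transcripts, Kif15-201 has 35 exons and spans chr9:122951046-123018733, and Kif15-205 and Kif15-211 lie at the 3′ end (7 and 6 exons). Kif15-201 had 69.4, 38.0, 63.5, 52.8 and 53.7 CPM in NFAT5 KO libraries, against 97.0, 83.7, 93.2, 81.0 and 98.8 CPM in WT libraries. No library overlapped between groups, and the log2 fold change was -0.73 (SE 0.15, edgeR adjusted p = 0.0366 over 38501 transcripts, 1.19% of them called lower). Kif15-205, annotated as a target of nonsense-mediated decay, had 11.4, 10.8, 16.6, 9.83 and 10.4 CPM in NFAT5 KO libraries, against 3.71, 4.41, 0.888, 0.732 and 9.21 CPM in WT libraries. By CPM it was higher in every NFAT5 KO library, as were 1.97% of transcripts, but did not pass (log2 fold change 1.63, SE 0.59, edgeR adjusted p = 0.272). By TPM the groups overlapped, with a lowest NFAT5 KO value of 7.893 and a highest WT value of 7.921. Salmon divides reads among overlapping transcripts by a model, so these shares are uncertain. Kif15-211 had a log2 fold change of 0.42 (SE 0.30, edgeR adjusted p = 0.681). These transcripts were picked after their values were seen. Of 27 mitotic transcripts tested 10 were called lower and 0 higher by edgeR. Of 25 transport transcripts 0 were called, which is near the shares over all transcripts (1.19% lower and 0.429% higher).

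**Figure D5:**
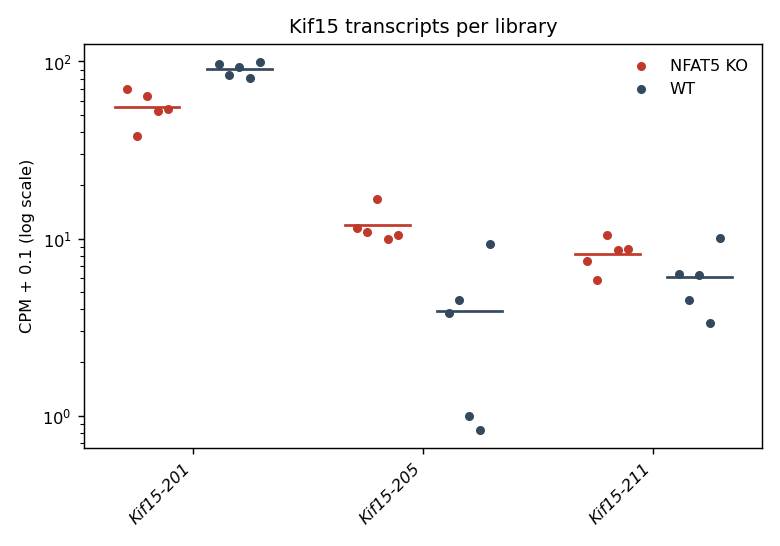
CPM of 3 Kif15 transcripts in every library, NFAT5 KO in red left of WT in dark blue, with means as bars and 0.1 added for the log axis. By CPM, Kif15-201 is lower and Kif15-205 higher in all NFAT5 KO libraries, while by TPM the groups overlap for Kif15-205.

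Among transport members, Kif5b encodes the main conventional kinesin heavy chain, which carries mitochondria, vesicles and lytic granules. Kif5b had 134, 128, 138, 147 and 139.6 CPM in NFAT5 KO libraries, against 141, 133, 176, 158 and 141 CPM in WT libraries. The groups overlapped, and the log2 fold change was -0.12 (SE 0.09, edgeR adjusted p = 0.448), with a 95% interval of -0.32 to 0.07. At 53.8 ± 2.78 TPM in NFAT5 KO and 56.9 ± 8.56 TPM in WT cells it had the highest level per length in the family. Kif3a and Kif3b encode the paired motor subunits of heterotrimeric kinesin, which carries vesicles and cilium parts. Kif3a had 2.53, 2.34, 4.03, 3.22 and 1.17 CPM in NFAT5 KO libraries, against 3.17, 10.7, 4.59, 2.53 and 2.58 CPM in WT libraries. The groups overlapped (log2 fold change -0.83, SE 0.47, edgeR adjusted p = 0.319). Kif3b had 27.2, 28.2, 20.2, 23.1 and 19.6 CPM in NFAT5 KO libraries, against 10.8, 19.1, 21.4, 11.0 and 15.3 CPM in WT libraries. These overlapped as well (log2 fold change 0.61, SE 0.21, edgeR adjusted p = 0.104), with the interval 0.14 to 1.07. Kif3c encodes a related motor subunit. Kif3c had 9.004, 30, 24.3, 9.11 and 10.1 CPM in NFAT5 KO libraries, against 8.31, 5.96, 10.1, 8.09 and 10.6 CPM in WT libraries. NFAT5 KO 678_5 and 678_6 stood above all other libraries (log2 fold change 0.94, SE 0.36, edgeR adjusted p = 0.132).

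Kif1b encodes a motor for mitochondria and vesicles. Kif1b had 10.02, 6.92, 15.6, 16.6 and 19.6 CPM in NFAT5 KO libraries, against 16.7, 12.2, 20.8, 10.4 and 16.4 CPM in WT libraries. The groups overlapped (log2 fold change -0.15, SE 0.28, edgeR adjusted p = 0.804). Kif13a encodes a motor of recycling endosomes. Kif13a had 0, 0.220, 2.06, 0 and 0.874 CPM in NFAT5 KO libraries, against 0, 0, 0.701, 0.438 and 1.71 CPM in WT libraries. It was near 0 in both groups (log2 fold change 0.15, SE 1.41, edgeR adjusted p = 0.963). Kif16b and Kif13b encode motors of early endosomes and of membrane cargo. Kif16b had 26.0 to 46.3 CPM in NFAT5 KO and 13.3 to 41.2 CPM in WT libraries, with its lowest WT value in 679_4 (log2 fold change 0.31, SE 0.27, edgeR adjusted p = 0.533). Kif13b had 3.55 to 17.4 CPM in NFAT5 KO and 5.12 to 27.3 CPM in WT libraries (log2 fold change -0.47, SE 0.44, edgeR adjusted p = 0.567). Kif1c, a vesicle motor, and Kif5a and Kif5c, conventional heavy chains known mainly from neurons, had log2 fold changes of 0.22, -1.12 and 1.29 and overlapping groups. Of the 11 intervals 7 lay above -1 and 3 lay within 1 of 0, so for most members the data allow a change of that size. Kif1a and Kif17 had too few counts to be tested.

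Of the other members 6 were tested and 0 were called by edgeR, with 0 at an unadjusted p below 0.05. As edgeR called 9.01% of the 13081 genes in either direction, 0 of 6 does not set this class apart. Kif2a encodes a motor that takes microtubule ends apart in spindles and neurons. Kif2a had 11.0, 13.8, 10.8, 8.87 and 9.10 CPM in NFAT5 KO libraries, against 8.58, 11.6, 6.40, 13.2 and 7.88 CPM in WT libraries. The groups overlapped (log2 fold change 0.17, SE 0.23, edgeR adjusted p = 0.718), and the gene overlaps Dimt1 (25.6 CPM) on the opposite strand. Kif21b encodes a motor that, in human T cells, limits microtubule growth at the immune synapse. Kif21b had 48.8, 45.8, 58.2, 51.8 and 36.9 CPM in NFAT5 KO libraries, against 53.5, 46.5, 43.4, 20.2 and 47.2 CPM in WT libraries. WT 679_4 was the low one, and the log2 fold change was 0.20 (SE 0.22, edgeR adjusted p = 0.647) with it and 0.01 without it. Kif7, a regulator of Hedgehog signalling at the primary cilium, had 1.44 to 10.1 CPM in NFAT5 KO and 1.36 to 4.86 CPM in WT libraries (log2 fold change 1.06, SE 0.50, edgeR adjusted p = 0.225), and it overlaps Ticrr (21.4 CPM) on the opposite strand. Kif24, which acts at centrioles, had 2.09 to 5.99 CPM in NFAT5 KO and 3.47 to 6.92 CPM in WT libraries (log2 fold change -0.70, SE 0.35, edgeR adjusted p = 0.254). Kif9 and Kif1bp had log2 fold changes of -0.31 and -0.15 and overlapping groups. The 9 members of this class that were not tested had 0 to 50 estimated counts per library, and 8 members of the family were at 0 in all libraries.

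Of 17 listed partners of the mitotic motors, 15 were lower and 0 higher in NFAT5 KO cells (median log2 fold change -2.55). Over all genes tested, 5.63% were called lower, and this list was chosen with earlier results of these data known. Racgap1, the partner of KIF23 in centralspindlin, had 45.1 to 63.0 CPM in NFAT5 KO and 135 to 228 CPM in WT libraries (log2 fold change -1.66, SE 0.15, edgeR adjusted p = 0.000117). Aurkb, the kinase that KIF20A brings to the midzone, had 6.56 to 16.2 CPM in NFAT5 KO and 60.7 to 113 CPM in WT libraries (log2 fold change -3.04, SE 0.28, edgeR adjusted p = 0.000117). Anln, a cytokinesis scaffold (log2 fold change -3.26, SE 0.96, edgeR adjusted p = 0.054), and Numa1, a spindle pole protein (log2 fold change 0.06, SE 0.30, edgeR adjusted p = 0.932), did not pass. Among the kinesin genes named without a digit, Cenpe, whose motor carries chromosomes to the spindle equator, had 2.73 to 12.4 CPM in NFAT5 KO and 26.6 to 66.7 CPM in WT libraries (log2 fold change -2.80, SE 0.40, edgeR adjusted p = 0.00115). Kifc1, a minus-end spindle motor, had 0 to 3.37 CPM in NFAT5 KO and 3.24 to 13.4 CPM in WT libraries and overlapping groups (log2 fold change -2.27, SE 0.80, edgeR adjusted p = 0.101). Of 14 tested cargo adaptors and light chains 1 was called, a share near the 9.01% of all genes called in either direction, with a median of 0.34. It was Sytl3, which links conventional kinesin to RAB27A on lytic granules, with 84.6 to 106 CPM in NFAT5 KO and 50.1 to 79.9 CPM in WT libraries, every NFAT5 KO library above every WT library (3.92% of all genes tested), and a log2 fold change of 0.61 (SE 0.13, edgeR adjusted p = 0.00941). Of 20 tested genes of dynein and dynactin, the motor that runs the other way, 2 were lower and 0 higher, again near the 9.01% called among all genes, with a median of -0.03. Nde1, a dynein regulator, had 43.2 to 61.1 CPM in NFAT5 KO and 77.2 to 106 CPM in WT libraries (log2 fold change -0.82, SE 0.12, edgeR adjusted p = 0.00167). Dynlt3, a dynein light chain, had 7.99 to 15.1 CPM in NFAT5 KO and 20.5 to 26.9 CPM in WT libraries (log2 fold change -0.996, SE 0.21, edgeR adjusted p = 0.0112).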

How the data were processed

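The authors deposited 1 Salmon table per library, with estimated counts, TPM and effective lengths per transcript, per the file headers. Per the submitters' processing notes they used Salmon 0.14.1, with GRCm38.p6 and mm10 as builds. Not given in the sources used here: annotation release, strand setting, trimming. Because Salmon divides reads among similar transcripts by a model, Kif4 and Kif22, which have pseudogenes, and genes that overlap are less certain.

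Transcripts were matched to GENCODE M21 (99.38% matched). The estimated counts deposited by the authors were summed per gene, rounded and tested with edgeR 4.0.16 (quasi-likelihood, TMM, filterByExpr, R 4.3.3) over all 10 libraries, with Benjamini-Hochberg adjustment at 0.05. TPM values deposited by the authors were summed per gene for levels per length. Intervals are 95%. Every pair of libraries differed by more than sampling noise. The script was tested on simulated data, where edgeR recovered 30 of 100 genes changed by 1 on the log2 scale and 99 of 100 changed by 2.

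The members, classes and gene lists were chosen with earlier results of these data known. Named genes were the mitotic members, any other member past the threshold, and Kif2a, Kif5b, Kif21b, Kif3a, Kif3b, Kif13a and Kif1b whatever their p. Any other gene named, apart from listed partners and markers, was picked with its values in view. Alternatives were DESeq2 1.42.0 (size factors and Wald test), limma-voom 3.58.1, filters, a length offset, the prefix, marker covariates and leaving out each library. Another class membership was also tried. Motif searches used RefSeq promoters. Protein sequences were not used here.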

Additional observations from a re-analysis of the deposited data

Results flagged for a closer look

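Dixon's test on 64 groups of 5 libraries (32 genes in 2 genotypes) marked 2 values as far from the others, and chance marks about 1 in 20 groups. Kif21b stood at 20.2 CPM in WT 679_4, while the other WT libraries were at 43.4 to 53.5 CPM. Kif1c stood at 9.08 CPM in NFAT5 KO 678_5, while the other NFAT5 KO libraries were at 2.52 to 3.59 CPM.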

How the results depend on the processing

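The 9 mitotic calls held with DESeq2 size factors, a filter on the mean, a length offset, the label prefix as a block and the melanoma markers as a covariate. The Wald test of DESeq2 called 10, limma-voom 11 and no low-count filter 8. Kif15 was called lower by the Wald test and by limma-voom, and Kif14 by limma-voom. Another class membership counted Kif2a, Kif2b and Kif24 as mitotic and Kif21a and Kif21b as transport. Mitotic calls stayed at 9, none of them a moved member, with a mitotic median of -2.51 and a transport median of 0.174. Prefix 678 alone called 0 mitotic members, and 0 higher and 0 lower genes in all. Prefix 679 alone called 71 higher and 254 lower genes. The macrophage covariate left 2 mitotic members and 1 higher and 45 lower genes, the melanoma covariate gave 285 higher genes, and the Wald test gave 811 higher genes. Leaving out each library gave 8 to 9 mitotic calls, 202 to 490 higher genes and 494 to 786 lower genes (202 and 494 without WT 678_2), a mitotic median of -2.88 to -2.40 and a transport median of -0.183 to 0.367. The transport median was negative without WT 678_2, 678_4 or 679_3 and without NFAT5 KO 678_6 or 679_6. No transport or other member was called in any alternative that was run. The causes were not tested.

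Signs of some members not called in the main edgeR fit turned. With the length offset they were 0.0141 for Kif15, -0.0387 for Kif21b, -0.841 for Kif13a and 0.0758 for Kif13b. With the macrophage covariate they were -0.0342 for Kif21b, -0.111 for Kif2a, 0.110 for Kif13b, -0.134 for Kif16b, 0.289 for Kif1b, -0.760 for Kif1c and -0.0176 for Kif3c. With prefix 679 alone they were -0.0395 for Kif2a, -0.358 for Kif7, -1.11 for Kif13a, 0.187 for Kif1b, -0.247 for Kif1c and -0.0073 for Kif3c, and with prefix 678 alone 2.12 for Kif9. Leaving out single libraries gave -0.844 to 0.543 for Kif9, -1.03 to 1.11 for Kif13a, -0.335 to 0.000301 for Kif1b and -0.272 to 0.367 for Kif1c. Counting error limits members of low count such as Kif13a, Kif14 and Kif9.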
